A study of Mus musculus with 6 samples.

Results

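The splicing factors described here are 46 genes of the mouse aorta, taken from 12393 genes that had a probe set with a single symbol on the array. They are Tra2a and Tra2b and every gene whose symbol begins with Srsf, Hnrnp, Snrp, Sf3a or Sf3b. Both probe sets of Tra2b were used, and for each other gene the probe set of highest mean signal over the 6 arrays, which gave 47 probe sets out of 118 that carry these symbols. A further 14 probe sets that list one of these genes beside another symbol were not used.

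Aortas came from C57BL/6J mice, an inbred strain that gains weight and becomes glucose intolerant on fat-rich food. There were 2 groups, high fat diet for 16 to 18 weeks and regular chow, with 3 Affymetrix arrays each. Each array carried labelled RNA from a pool of 3 aortas whose adventitia and periaortic fat had been removed, so that n = 3 pools per diet. The tests below see no variation other than that from pool to pool. In high fat replicates 2 and 3 the diet began at 10 weeks of age, while the label of high fat replicate 1 gives an age of 16 to 20 weeks. The labels put chow replicates 2 and 3 at 26 to 28 weeks, the age that high fat replicates 2 and 3 reach by their start and length of diet. No age is given for chow replicate 1, and ages of the first pools therefore could not be compared. The mice were male where the labels give the sex, which is every pool but high fat replicate 1.

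Splicing removes introns from pre-mRNA in the spliceosome, whose small nuclear ribonucleoproteins (snRNPs) carry a ring of Sm proteins and whose SF3a and SF3b complexes hold the branch point. SR proteins, named for their arginine and serine rich tails, bind exons and favour their inclusion, and heterogeneous nuclear ribonucleoproteins (hnRNPs) often act against them. Tra2a and Tra2b are SR-like proteins that bind GAA-rich exonic enhancers, and both they and many SR proteins limit their own amount through exons that direct their transcripts to decay. In smooth muscle, the main cell type of the aortic media, Tra2b is known to promote inclusion of an alternative exon of the myosin phosphatase targeting subunit.

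Stretches of 250 bases upstream of the start site are shown for 3 members, because they differ in what the arrays measured. They are Tra2b, the member that fell, and the hnRNP and SR protein genes with the smallest p on the probe sets used. The hnRNP gene is Hnrnpa2b1, and the SR protein gene is Srsf5, which had a higher mean on high fat diet. The sequences are those of RefSeq on GRCm38.p6, at chr16:22266006-22266255 on the minus strand for Tra2b, chr6:51469895-51470144 on the minus strand for Hnrnpa2b1 and chr12:80945249-80945498 on the plus strand for Srsf5. They are written 5′ to 3′, and capitals mark matches on either strand to the GC box GGGCGG, the CCAAT box CCAAT, the TATA box TATAAA, the cAMP response element TGACGTCA or a heat shock element, taken as the units GAA, TTC and GAA with any 2 bases between neighbours. The last of these was searched for after the Tra2b stretch had been seen.
Tra2b: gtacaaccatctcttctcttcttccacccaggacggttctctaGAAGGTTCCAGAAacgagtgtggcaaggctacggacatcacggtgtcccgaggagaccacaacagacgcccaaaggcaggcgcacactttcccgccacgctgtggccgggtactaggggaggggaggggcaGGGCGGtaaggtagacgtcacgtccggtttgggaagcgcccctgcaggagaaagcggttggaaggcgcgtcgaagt
Hnrnpa2b1: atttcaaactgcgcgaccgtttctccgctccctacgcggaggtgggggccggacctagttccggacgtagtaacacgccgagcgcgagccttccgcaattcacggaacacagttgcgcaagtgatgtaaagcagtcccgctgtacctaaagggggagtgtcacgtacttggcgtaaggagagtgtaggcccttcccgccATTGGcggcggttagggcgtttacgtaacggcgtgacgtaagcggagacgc
Srsf5: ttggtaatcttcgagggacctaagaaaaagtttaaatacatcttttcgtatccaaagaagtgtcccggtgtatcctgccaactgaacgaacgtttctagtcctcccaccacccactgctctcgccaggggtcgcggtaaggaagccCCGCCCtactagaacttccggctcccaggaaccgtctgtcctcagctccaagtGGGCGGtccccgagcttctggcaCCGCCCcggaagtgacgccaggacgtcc
The Tra2b stretch held a heat shock element from 207 to 195 bases before the start site and 1 GC box. That of Hnrnpa2b1 held a CCAAT box on the strand opposite to the one shown, and that of Srsf5 held 3 GC boxes. The first listed promoter of each gene was searched, which covered 41 of the 46 members and 27025 genes in all. Tra2b was the only 1 of the 41 with the heat shock element, which 0.4% of all genes held. A GC box was found in 28 of 41 members (68.3%) and in 32.9% of all genes, a CCAAT box in 19 (46.3%) and in 34.5%, a TATA box in 4 (9.76%) and in 13%, and a cAMP response element in 2, Tra2a and Snrpg (4.88%), and in 1.62%. The stretches of members had a median GC content of 60.4% against 52% over all genes, and the shares were not matched for base composition. A match describes the letters alone.

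Tra2b was the member that passed the test, and it was lower on high fat diet. Its probe set 1427432_a_at had signals of 315.3, 260.4 and 262.7 in the high fat pools, given from replicate 1 to replicate 3 here and throughout, against 564.5, 651 and 709.7 in the chow pools. All high fat arrays lay below all chow arrays, with the highest high fat signal far under the lowest chow signal. The means were 279.5 ± 31.1 on high fat diet and 641.7 ± 73.0 on chow (SD, n = 3 each). On the log2 scale the fold change was -1.18 ± 0.15 (SE, 95% interval -1.52 to -0.85, adjusted p = 0.0223, limma). Fold changes are high fat minus chow on the scale log2(signal + 6), and p-values are adjusted over the 13575 probe sets tested, with a threshold of 0.05. In whole tissue, fewer cells of a type and less RNA per cell cannot be told apart.

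The second Tra2b probe set, 1419543_a_at, had signals of 225.7, 203.7 and 261.6 on high fat diet, against 316.8, 308.8 and 328.7 on chow. The diets did not overlap here either, but the difference of -0.46 ± 0.15 on the log2 scale (SE, 95% interval -0.80 to -0.13) missed the threshold (adjusted p = 0.549, limma). The log2 difference between the probe sets within an array came to 0.47, 0.35 and 0.01 on high fat diet, against 0.82, 1.06 and 1.10 on chow. The fold changes of the probe sets thus differed by -0.72 (exact permutation p = 0.1, two-sided, the smallest that 3 arrays against 3 allow). Both carry the suffix given to probe sets that read alternative transcripts of 1 gene, and which transcripts each one reads was not analysed here. Averaging them put Tra2b at -0.82, short of the threshold (adjusted p = 0.0689).

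**Figure D1:**
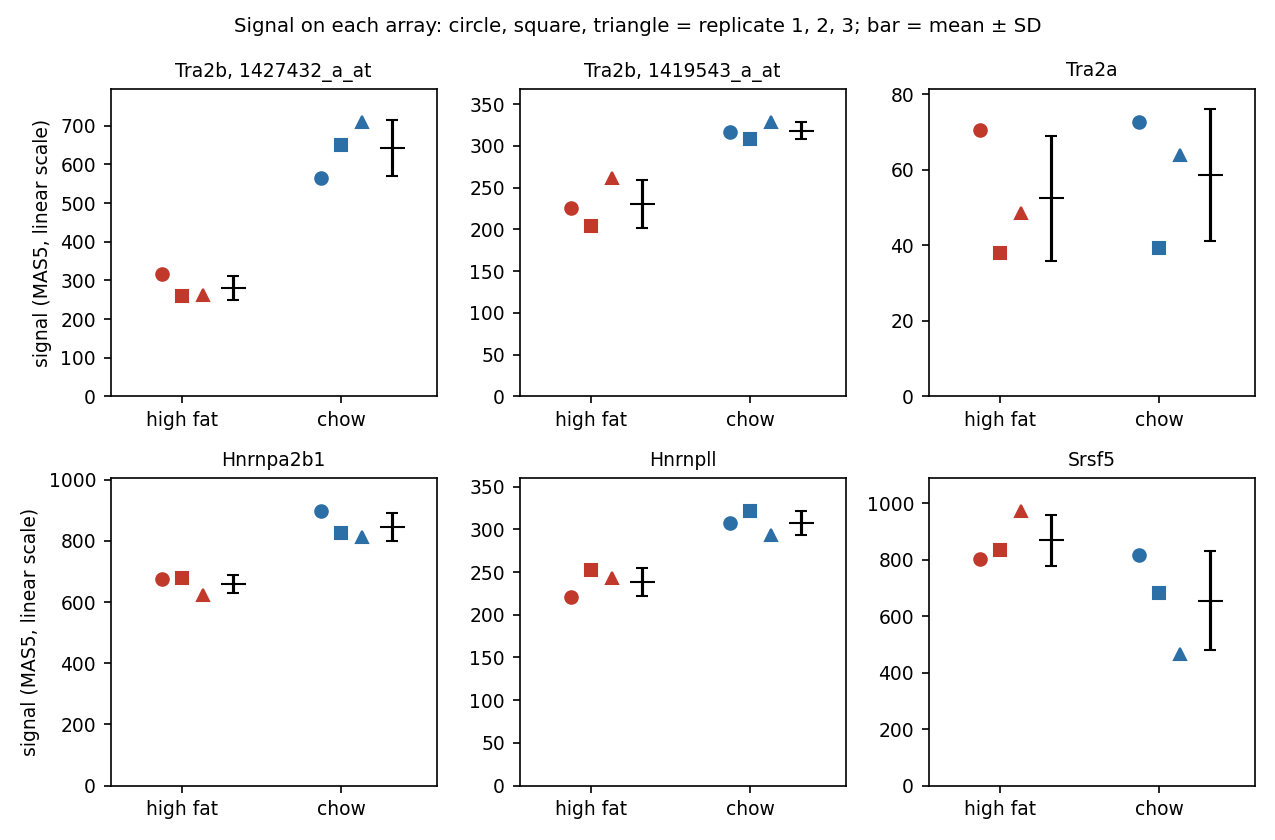
Signal on the linear MAS5 scale (y axis) on each of the 6 arrays for both Tra2b probe sets, Tra2a, Hnrnpa2b1, Hnrnpll and Srsf5, high fat arrays in red and chow arrays in blue, with mean and SD in black. The diets are apart for both Tra2b probe sets, Hnrnpa2b1 and Hnrnpll and overlap for Tra2a and Srsf5.

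The call on Tra2b rested on several of the arrays. Its adjusted p was 0.144 when high fat replicate 2 was left out, 0.124 for high fat replicate 3, 0.151 for chow replicate 2 and 0.0695 for chow replicate 3, and it stayed under 0.05 when high fat replicate 1 (0.0269) or chow replicate 1 (0.0364) was left out. The log2 fold change lay between -1.27 and -1.11 over these 6 fits. Without a variance trend the adjusted p was 0.113.

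**Figure D2:**
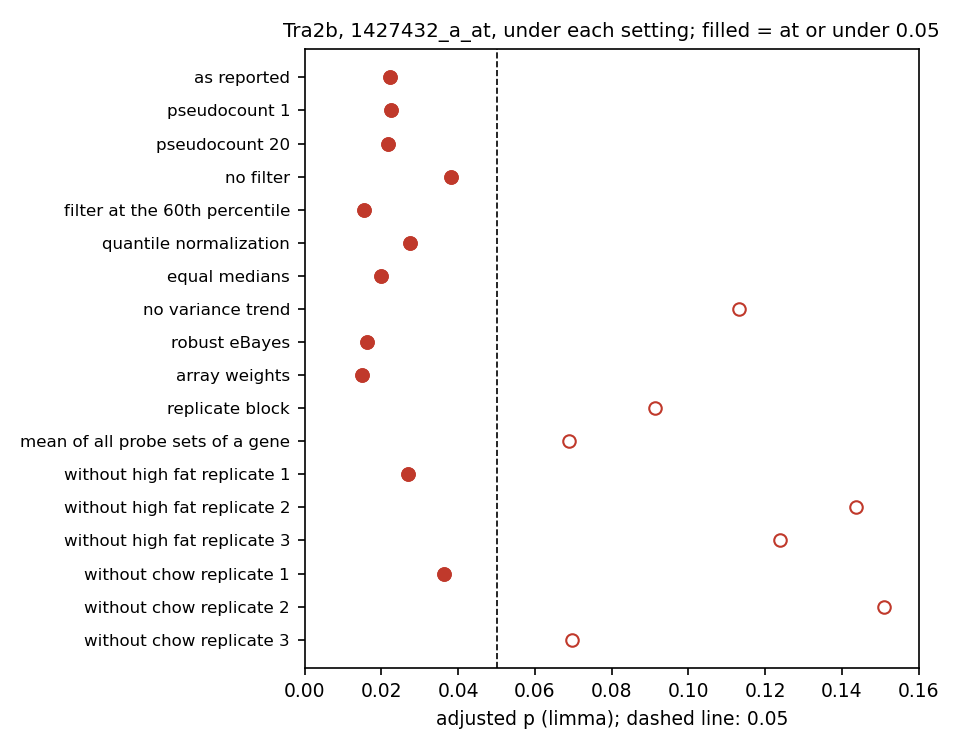
Adjusted p from limma (x axis) of the Tra2b probe set 1427432_a_at as reported and under 17 other settings (rows), with the threshold of 0.05 as a dashed line. It lies at or under the line as reported and in 10 of the other settings shown, and above it in 7. The fit without _x_at and _s_at probe sets is not shown.

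Tra2a, the paralog with similar RNA binding, was measured at low signals of 70.5, 38.1 and 48.7 on high fat diet, against 72.7, 39.2 and 64 on chow. The diets overlapped throughout, with replicate 2 lowest on either diet. The log2 fold change was -0.14 (95% interval -0.77 to 0.48, adjusted p = 0.937). That interval holds the estimate for the second Tra2b probe set and not that for the first, and the difference between the genes was not tested.

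Markers of other cells differed between the diets on the same arrays. The summed signal of 5 brown adipocyte markers was 7567 to 8593 on high fat diet, against 4605 to 6042 on chow, with higher means for all 5. For 5 macrophage markers it was 1750 to 2740 on high fat diet, against 1314 to 1506 on chow, again with all 5 higher. For 5 endothelial markers it was 868.7 to 1063 on high fat diet, against 726.9 to 784.4 on chow, with 4 higher. Schwann cell markers, 2 of 4 with a probe set here, summed to 211.7 to 346.6 on high fat diet, against 138 to 173.9 on chow, with both higher. Diets did not overlap in these 4 sums, no gene of the 4 lists passed the threshold and no marker was at 0. The markers of smooth muscle, the labelled tissue's main cell type, summed to 21078 to 22572 on high fat diet, against 20208 to 25600 on chow, with 5 of 5 lower. Cardiac markers summed to 659 to 3782 on high fat diet, against 660.7 to 1880 on chow, with 6 of 6 higher. White adipocyte markers, 3 of 5 with a probe set here, summed to 2097 to 2211 on high fat diet, against 2027 to 2742 on chow, with 2 higher. Adventitial fibroblast markers summed to 1925 to 2588 on high fat diet, against 2140 to 2402 on chow, with 1 of 3 higher. The diets overlapped in these last sums. The adipocyte hormone Retn was the 1 marker past the threshold, and it was lower on high fat diet (log2 fold change -1.06, adjusted p = 0.0435, limma). Adventitial Dpt was detectable at 1221 to 1655 on high fat diet, against 1108 to 1419 on chow, although the adventitia had been removed. Brown adipocyte Ucp1 was likewise detectable, at 3154 to 3664 on high fat diet, against 2122 to 2724 on chow, although periaortic fat had been removed. All 3 T cell markers lay under the filter on dim probe sets. The Gapdh control probe sets at the 3′ and 5′ ends had a signal ratio of 0.96 to 1.07 on high fat diet, against 0.89 to 1.38 on chow. For the actin controls the ratio was 1.27 to 1.94 on high fat diet, highest in replicate 2, against 1.37 to 1.79 on chow. Median signals were 58.4 to 66.6 on high fat diet, against 59.8 to 61.5 on chow. The part of these differences in the results for Tra2b and the other members was not tested.

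Of the 46 member probe sets tested, 1 passed, lower on high fat diet, and 0 passed as higher in limma. Of all probe sets tested 0.0737% passed, 0.0368% in each direction. At an unadjusted p of 0.05, 4 were lower and 1 was higher, 5 in all, against 3.11% lower and 3.92% higher, 7.03% in all, over the array. Those 5 were 3 when high fat replicate 1, high fat replicate 3 or chow replicate 2 was left out. The diets did not overlap, with high fat lower, for 5 members, both Tra2b probe sets, Hnrnpa2b1, Hnrnpll and Srsf4, and for 0 with high fat higher, where 6.08% and 6.26% of all probe sets, 12.3% together, were apart in these directions. Snrpn, the imprinted Sm protein gene of neurons, was the 1 probe set under the filter, with a mean signal of 7.5 on high fat diet and 4.7 on chow, and was not tested.

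Most members nonetheless had slightly lower means on high fat diet. Of the 46, 36 (78.3%) had a log2 fold change under 0, against 51.8% of all probe sets, and the median was -0.13 against -0.01. Members and all probe sets were not matched for signal. Without a filter 47.5% of all probe sets were lower, against 76.6% of members. With the filter at the 60th percentile the shares were 54.4% and 77.3%. Without Tra2b, 34 of 44 members were lower with a median of -0.11. Apart from 1427432_a_at the fold changes lay between -0.46 and 0.44, and the standard errors between 0.13 and 0.28, with a median of 0.16 for a single probe set. Over the scalings tried, quantile normalization gave 35 lower of 46, against 52.7% of all probe sets in that fit. Equal medians gave 40 of 46, against 59.0% of all probe sets. The members' median minus that of all probe sets was -0.12 both as reported and with equal medians. Leaving out single arrays gave 32 to 36, against 49.1% to 52.6% of all probe sets.

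**Figure D3:**
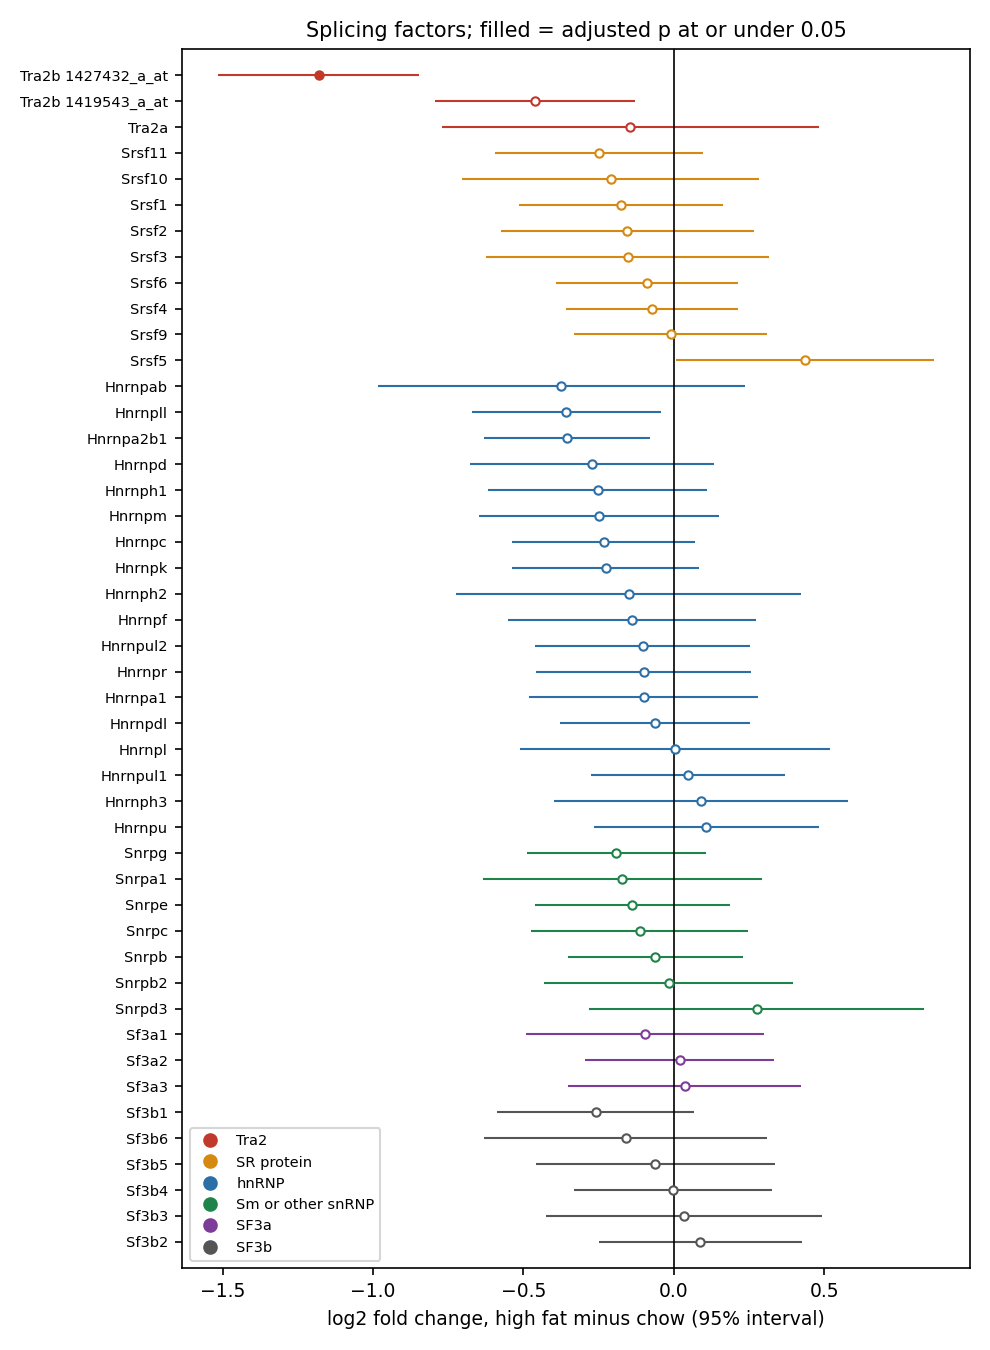
Log2 fold change, high fat minus chow, with its 95% interval (x axis) for each of the 46 member probe sets tested, grouped and coloured by class. The Tra2b probe set 1427432_a_at, filled, stands at -1.18 and the intervals of all but 5 probe sets cross 0.

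The shift was uneven between arrays. Each member was set against its own mean log2 value, and the median of these deviations was -0.06, -0.14 and 0.01 on the high fat arrays, against 0.06, 0.05 and 0.04 on the chow arrays. High fat replicate 2 was lowest, with 34 of 46 members under their mean, and high fat replicate 3, with 22, lay closest to the chow arrays. Over all probe sets tested the same median stayed between -0.01 and 0.02 on every array.

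**Figure D4:**
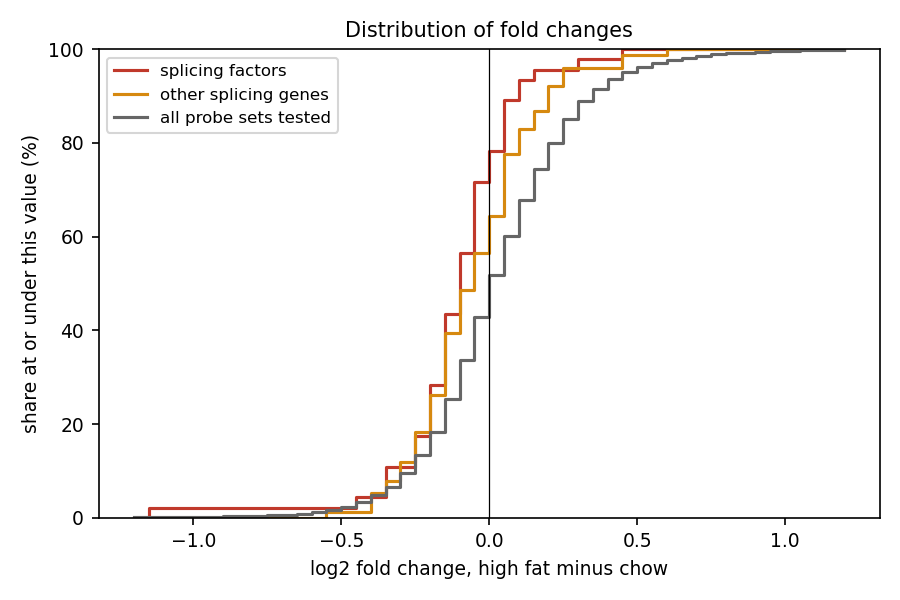
Share of probe sets (y axis, %) with a log2 fold change, high fat minus chow, at or under the value on the x axis, for the 46 member probe sets, 76 other splicing genes and all 13575 probe sets tested. At 0 the share is 78.3% for members, 64.5% for the other splicing genes and 51.8% for all.

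Among the 9 SR protein genes, 8 had lower means on high fat diet. The median shift was -0.15, and by limma 0 passed, 1 at an unadjusted p under 0.05. That gene was Srsf5, a splicing activator that responds to insulin and other hormones, and it was the 1 SR protein gene with a higher mean. Srsf5 had 800.7, 833.3 and 971.3 on high fat diet, against 815.2, 680.8 and 467 on chow. The diets overlapped by high fat replicate 1 and chow replicate 1, and the chow arrays were spread widely (log2 fold change 0.44, 95% interval 0.01 to 0.87, adjusted p = 0.700). The fold change was 0.21 when chow replicate 3 was left out and at most 0.61 when another array was.

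Srsf11, an SR-related protein that contacts the core splicing machinery, had 253.7, 208.6 and 271.8 on high fat diet, against 312.6, 270.9 and 288.6 on chow (log2 fold change -0.25, adjusted p = 0.786). Srsf1, the prototype of the family, had 241.8, 217.3 and 282.6 on high fat diet, against 273, 294.1 and 269.3 on chow (-0.18, adjusted p = 0.851). In both, high fat replicate 3 reached into the chow range. All 6 Srsf1 probe sets tested had lower means on high fat diet, with log2 fold changes of -0.55 to -0.16. On the one at -0.55 all high fat arrays were lower (adjusted p = 0.586, limma). Srsf10, which represses splicing when dephosphorylated, had a log2 fold change of -0.21 and Srsf9 one of -0.01, with adjusted p-values of 0.880 and 0.991. Srsf4, named here after its values were seen, had 406, 422.6 and 404.1 on high fat diet, against 432.9, 428.7 and 435.6 on chow. These arrays did not overlap, but the difference was small (log2 fold change -0.07, adjusted p = 0.926). The remaining SR proteins Srsf2 and Srsf3, both at -0.15, and Srsf6, at -0.09, overlapped between diets. Other probe sets of Srsf6 went the other way, at 0.12 with all high fat arrays higher, and at 0.19 with overlap. Srsf2 and Srsf3 had their highest high fat signal, 597.5 and 482.3, in replicate 3 and their lowest, 360 and 272.4, in replicate 2.

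Of 18 hnRNP genes, 14 had lower means on high fat diet, the median was -0.14 and 0 passed in limma, with 2 at an unadjusted p under 0.05, both lower. The median deviation of these genes from their own means was -0.08, -0.13 and -0.01 on high fat arrays, against 0.20, 0.06 and -0.06 on chow. Chow replicate 3 thus lay under high fat replicate 3, and chow replicate 1 was the highest. Hnrnpa2b1 encodes an hnRNP of the A/B family that also takes part in RNA transport. It had 674.6, 679.2 and 624.5 on high fat diet, against 897, 824.8 and 812.5 on chow. The diets were well apart, with means of 659.4 ± 30.3 on high fat diet and 844.8 ± 45.7 on chow (SD, n = 3 each; log2 fold change -0.35, 95% interval -0.63 to -0.08, adjusted p = 0.586). The diets overlapped on its other 3 probe sets, which had -0.15 to -0.18. The mean of all its probe sets was -0.21.

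Hnrnpll, which controls alternative splicing of the leukocyte phosphatase Ptprc in T cells, had 220.3, 252.7 and 242.9 on high fat diet, against 306.9, 321.2 and 293.6 on chow. Its probe set, of suffix _s_at, can bind related transcripts. The same holds for those of suffix _s_at or _x_at used for Srsf1, Srsf2, Snrpe, Snrpg, Sf3a2, Hnrnpa1, Hnrnpf and Hnrnpu. It also holds for the Srsf1 probe set at -0.55. For Hnrnpll all high fat arrays were lower (log2 fold change -0.36, 95% interval -0.67 to -0.04, adjusted p = 0.645, limma). A second probe set gave -0.34, again with no overlap. Hnrnpc, which binds uridine tracts and shields cryptic exons, had 989.8, 887.5 and 1118.5 on high fat diet, against 1061.1, 1172.5 and 1287.1 on chow. Hnrnpk, a poly(C) binding protein, had 971.5, 760.5 and 811.2 on high fat diet, against 1089.5, 911 and 969.8 on chow. Each had means a little lower on high fat diet with overlapping arrays (log2 fold changes -0.23 each, adjusted p = 0.776 and 0.786). Hnrnpdl, a relative of the mRNA decay factor Hnrnpd, had -0.06, and its other 4 probe sets tested ran from -0.26 to 0.12. The 13 hnRNP genes not yet given overlapped between the diets, with log2 fold changes of -0.37 to 0.11. The lowest of them, Hnrnpab, had 798.2, 575.9 and 842 on high fat diet, against 636.4, 865.4 and 1538.2 on chow, where chow replicate 3 stood alone above the other arrays. Hnrnpd, Hnrnph1 and Hnrnpm had -0.27, -0.25 and -0.25, and Hnrnpu, a nuclear scaffold protein, had 0.11. A second Hnrnph1 probe set went the other way, at 0.20, and the other Hnrnpu probe sets tested ran from -0.07 to 0.01.

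**Figure D5:**
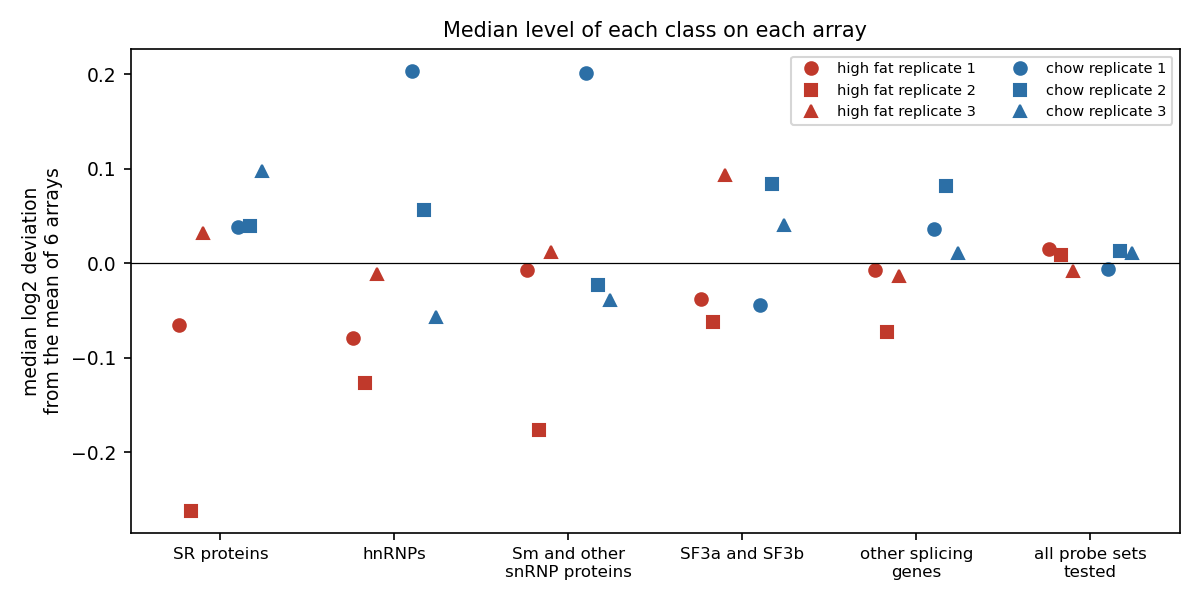
Median over genes of the log2 distance to each gene's own 6-array mean (y axis) for each class of splicing factors, the other splicing genes and all probe sets tested, 1 point per array, high fat in red and chow in blue. SR proteins are lowest in high fat replicate 2 at -0.26. The hnRNPs, and the class of Sm and other snRNP proteins, are highest in chow replicate 1 at 0.20, and all probe sets stay near 0.

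Sm and other snRNP protein genes had log2 fold changes between -0.19 and 0.28. Of 7 tested, the mean was lower on high fat diet for 6, the median was -0.11, and limma passed 0, with 0 at an unadjusted p under 0.05 too. Snrpg, a subunit of the Sm ring, had 589.1, 539.1 and 584.5 on high fat diet, against 702.2, 674 and 585.5 on chow. The diets overlapped by a single chow array, replicate 3 (log2 fold change -0.19, adjusted p = 0.807), and the second Snrpg probe set had -0.27. The ring subunits Snrpe and Snrpb had -0.14 and -0.06, and Snrpa1, a protein of the snRNP that binds the branch point, had -0.17 on the probe set used and 0.05 on another. Snrpb2 and Snrpc, proteins of the snRNPs that read the branch point and the 5′ splice site, had -0.02 and -0.11. A second Snrpb2 probe set had 120.3, 107.4 and 118.2 on high fat diet, against 78.3, 94.9 and 96.8 on chow. All its high fat arrays were higher (0.34, adjusted p = 0.744). Snrpd3, a further ring subunit, had 216.8, 248.9 and 155.9 on high fat diet, against 245.5, 149.1 and 126.9 on chow. The arrays overlapped widely (0.28, adjusted p = 0.857), and its other probe set tested had -0.16. The fold change was 0.085 when chow replicate 3 was left out and 0.55 for chow replicate 1. In chow replicate 1 all 7 lay above their mean, and the median of the 7 was 0.20 there, against -0.04 to -0.02 in the other chow arrays.

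The SF3a and SF3b subunits, which hold the branch point in the early spliceosome, were spread around 0. Of 9 genes, 5 had lower means on high fat diet, the median was 0.00, and 0 were under an unadjusted or adjusted p of 0.05 in limma. Sf3b1, the large scaffold of SF3b, had 394, 434.3 and 476.4 on high fat diet, against 494.8, 597.7 and 476.2 on chow (log2 fold change -0.26, 95% interval -0.59 to 0.07, adjusted p = 0.766). High fat replicate 3 and chow replicate 3 had nearly the same signal. Its other probe sets pointed both ways, at 0.47 and -0.15, so that no direction can be given for the gene. Sf3b6, which touches the branch point adenosine, had -0.16, and the SF3b subunits Sf3b2 and Sf3b4 had 0.09 and 0.00. The SF3a subunits Sf3a1 and Sf3a2 had -0.10 and 0.02, and adjusted p for these 5 ran between 0.897 and 0.997. The other probe sets of Sf3b2 lay on the other side of 0, at -0.06, -0.17 and -0.31, and so did that of Sf3a1, at 0.02. The subunits not yet given, Sf3a3, Sf3b3 and Sf3b5, had 0.04, 0.03 and -0.06. Sf3b3 varied most, with 229.3, 180.1 and 327.4 on high fat diet, against 220.3, 225.7 and 253.6 on chow.

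Probe sets of 1 gene did not always agree in direction. For 30 members with over 1 probe set tested, all were lower for 17, all higher for 1 and mixed for 12. Of the 62 tested probe sets that were not used, 49 had lower means on high fat diet and 0 passed in limma, with 1 at an unadjusted p under 0.05. They come from the same arrays and RNA and are no separate evidence. The widest range within a gene was 0.73 for Sf3b1, followed by 0.72 for Tra2b and 0.51 for Srsf2.

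Other genes of the splicing machinery were taken from a list of 97, of which 82 were on the array and 76 were tested. The list holds helicases, tri-snRNP proteins, alternative splicing regulators and SR protein kinases. None passed in either direction in limma, 4 of 76 had an unadjusted p under 0.05, all lower, against 7.03% of all probe sets, and the means of 49 were lower on high fat diet (median -0.08). The diets did not overlap for 8 with high fat lower and 3 with high fat higher, or 14.5%, close to the 12.3% of all probe sets. Dhx15, a helicase that takes the spliceosome apart, had 491.8, 358.6 and 424.5 on high fat diet, against 514.5, 635 and 588.1 on chow. All high fat arrays were lower, high fat replicate 1 by little (log2 fold change -0.45, adjusted p = 0.586), and a second probe set had -0.37. Ptbp2, the neuronal relative of the splicing repressor Ptbp1, had 97.2, 95.8 and 164.6 on high fat diet, against 191, 185.9 and 148.1 on chow. Here high fat replicate 3 lay above the lowest chow array (-0.57, adjusted p = 0.639). With a second, dimmer probe set averaged in, Ptbp2 had -0.29. Sfpq, which binds RNA with Nono in paraspeckles, had -0.41 on its brightest probe set, and the diets did not overlap (adjusted p = 0.679). Other Sfpq probe sets went the other way, at 0.37 and 0.38, each with all high fat arrays higher, and another had -0.20. The average over Sfpq probe sets was -0.045, so that no direction can be given for the gene. Tardbp, a repressor of cryptic exons, had -0.39 with no overlap of the diets (adjusted p = 0.692). Its other probe sets tested had -0.14 each, and the average was -0.16.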

How the data were processed

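RNA of aorta pools was measured on 6 arrays, and 5 µg of RNA per pool entered the labelling. The deposited values are linear signal intensities that MAS5 had computed, per the submitters' processing notes. The sources used here do not give the version or the scaling target of MAS5. On each array the mean after trimming 2% from either end was about 150.05, so no further scaling was applied. Detection calls were not used, and 42.1% to 46.3% of the signals of an array lay under 50. The number of arrays limits the precision.

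The table held 22690 probe sets, 64 of them controls, which were dropped. The platform's annotation gave the symbols, and the 46 member genes matched the current gene table by ID with 0 symbols changed. After taking log2(signal + 6), probe sets were kept where the mean exceeded the 40th percentile, which equals a signal of 40.7. limma 3.58.1 under R 4.3.3 compared the diets with lmFit and a moderated two-sided test from eBayes, its prior variance following signal. Benjamini-Hochberg adjustment covered all probe sets kept. The code had first been tested on simulated data. In 20 runs it recovered 9.7% of planted log2 changes of 0.5 and 76.9% of those of 1, and 7.38% of its calls were false. Tables and figures were made in Python 3.11.15 with pandas 2.3.3, numpy 2.4.6, scipy 1.17.1 and matplotlib 3.10.9.

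Genes named with values were all Tra2b probe sets, Tra2a, any member past the threshold, and per class the 4 of smallest p and the 2 of highest signal, with SF3a and SF3b as 1 class. Of the other splicing genes the 4 of smallest p were named. Other probe sets of a named member were given where they differed in sign or by over 0.5, and further ones after their values had been seen. Srsf4 and the remaining members were described after their values had been seen. The members and gene lists were chosen with earlier results of these data known.

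Alternatives changed the pseudocount (1 or 20), the filter (none, or the 60th percentile), the scaling (quantile, or equal array medians), the variance model (no trend, robust, or weighted arrays), and the probe sets (averaged per gene, or without those of suffix _x_at or _s_at, 9 of the 46). A further fit added a block for replicate number, and each array was left out in turn. Across probe sets, deviations of same-numbered arrays from their diet means correlated at 0.03, 0.17 and -0.11. Arrays of different numbers had -0.16 to 0.14. With 3 arrays per diet these values cannot tell whether the numbers pair the pools.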

Additional observations from a re-analysis of the deposited data

How the results depend on the processing

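The Tra2b probe set 1427432_a_at kept its direction in the 17 other settings for which its values were recorded. It had log2 fold changes of -1.27 to -0.82 in these and passed in 10. It did not pass without a variance trend (-1.18, adjusted p = 0.113), with the replicate number as a block (-1.18, adjusted p = 0.0914), with all probe sets of a gene averaged (-0.82, adjusted p = 0.0689), or without high fat replicates 2 or 3 or chow replicates 2 or 3, where the fold change was -1.17 to -1.11 and its range over all arrays left out was -1.27 to -1.11. The count of members past the threshold, 1, was 0 in these same settings and thus 0 to 1 over arrays left out. In the fit without _x_at and _s_at probe sets 1 member passed, lower on high fat diet. That fit held 1427432_a_at, but its value there was not recorded. The block moved no other call of the members, and whether the numbers pair the pools could not be told. The count of all probe sets past the threshold was 10 as reported and 5 with the block, 5 without a variance trend, 6 without a filter, and 5 to 16 over arrays left out, the highest without high fat replicate 1 and the lowest when high fat or chow replicate 2 was dropped. The second Tra2b probe set did not pass in any setting for which its values were recorded (-0.56 to -0.38). The members' median was -0.18 to -0.086 over all settings and over arrays left out, with -0.18 without high fat replicate 3, and 32 to 40 of them were lower. The 40 came with equal medians, where 59.0% of all probe sets were lower.

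Of 461 values of the 26 other named genes in other settings, 0 passed and 24 changed sign, all between -0.11 and 0.10. Sf3b4 was at 0.016 with quantile normalization, at 0.000336 with array weights, and at -0.12 to 0.10 over arrays left out. Sf3a2 was at -0.023 with equal medians, at -0.00417 with array weights, and at -0.065 to 0.10 over arrays left out. Srsf9 was at 0.011 with quantile normalization and Tra2a at 0.011 with array weights, and over arrays left out they ran from -0.084 to 0.082 and from -0.38 to 0.040. With probe sets averaged, Snrpd3 was at -0.099, Sf3b2 at -0.11 and Sf3b1 at 0.020. Over arrays left out, Snrpb ran from -0.10 to 0.0087, Hnrnpdl from -0.17 to 0.037, Sf3b2 from -0.014 to 0.15 and Sf3a1 from -0.23 to 0.011. For these changes of call or sign the cause was not tested.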
